A study of Mus musculus with 4 samples.

Results

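The genes described here are the nuclear genes for the subunits of oxidative phosphorylation (OXPHOS), the respiratory chain and ATP synthase of mitochondria, in single-nucleus RNA sequencing of the mouse hippocampus. They were chosen by symbol alone: Ndufa, Ndufb, Ndufc, Ndufs and Ndufv genes for complex I, Sdha to Sdhd for complex II, Uqcr genes for complex III, Cox4i to Cox8 genes for complex IV and Atp5 genes for complex V. Assembly factors, pseudogenes and opposite-strand genes were left out. This gave 85 of the 32285 genes counted, of which 38 belong to complex I, 4 to complex II, 8 to complex III, 18 to complex IV and 17 to complex V. Female C57BL/6J mice, 8 weeks old at the start by the growth protocol, were wild type (WT) or carried the APPNL-G-F knock-in. This App allele encodes human amyloid-beta with mutations of familial Alzheimer's disease under the gene's own promoter. Mice of each genotype were kept without or with voluntary wheel running over 10 weeks, which gave 4 groups with 1 library each. The titles and the treatment label set 2 libraries apart as without exercise, whereas the treatment protocol names a running wheel for every library, and the number of animals in a library is not given. Values in fours below are in the order WT without exercise, WT with exercise, knock-in without exercise and knock-in with exercise.

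Complex I takes electrons from NADH and complex II, which is also succinate dehydrogenase of the TCA cycle, takes them from succinate. Complex III passes them to cytochrome c, complex IV passes them on to oxygen, and complex V uses the proton gradient that complexes I, III and IV build to make ATP. The subunits of complex II are all encoded in the nucleus, whereas complexes I, III, IV and V each also hold subunits encoded in the mitochondrial genome. Neurons draw most of their ATP from this chain, and several subunits of complex IV have isoforms that replace each other between tissues.

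Nuclear OXPHOS genes are known for CpG-rich promoters with sites for the factors NRF1, GABPA, an ETS protein, and YY1. RefSeq promoter windows on GRCm38.p6, from 250 bases before to 50 bases after the annotated start, were found for 68 members, some with more than 1 window. On either strand, the ETS motif CCGGAAG was present for 17 of these members (25%), the NRF1 motif GCGCATGCGC for 5 (7.35%) and the YY1 motif ATGGCGG for 10 (14.7%). The same letters were found in 8.86%, 0.971% and 4.05% of all 32851 windows of that length. A member counted as a match if any of its windows matched, whereas all windows were counted singly, which favours the members. The Sp1 motif GGGCGGG was present for 33.8% of the members against 25.6% of all windows, and TATAAA for 11.8% against 13.6%. No motif contains another, although matches of 2 motifs can share end bases, and the median number of CpG sites per window was 19 for the members' windows and 7 over all windows. A match describes the letters only. The stretches below belong to members named in the results whose NRF1 or ETS letters lie wholly before the start, at least 1 from each complex. Each runs 5' to 3' on the minus strand from 20 bases before the first match to the base before the start, with the NRF1 letters, or the ETS letters in either direction, in capitals. They lie at chr2:90904722-90904768 (Ndufs3), chr9:50603850-50603915 (Sdhd), chr10:80406822-80406907 (Uqcr11), chr5:115348959-115349140 (Cox6a1), chr7:30626115-30626162 (Cox6b1), chr2:174464102-174464223 (Atp5e) and chr15:102671048-102671109 (Atp5g2).
Ndufs3: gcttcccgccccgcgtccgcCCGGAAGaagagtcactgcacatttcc
Sdhd: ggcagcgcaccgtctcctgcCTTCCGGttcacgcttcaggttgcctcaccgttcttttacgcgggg
Uqcr11: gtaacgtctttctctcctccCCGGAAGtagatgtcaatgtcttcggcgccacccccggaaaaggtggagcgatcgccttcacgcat
Cox6a1: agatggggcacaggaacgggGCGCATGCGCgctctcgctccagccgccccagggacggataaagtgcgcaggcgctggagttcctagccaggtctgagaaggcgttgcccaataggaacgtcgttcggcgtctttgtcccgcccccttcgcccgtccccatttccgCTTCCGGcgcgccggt
Cox6b1: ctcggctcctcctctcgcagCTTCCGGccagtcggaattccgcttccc
Atp5e: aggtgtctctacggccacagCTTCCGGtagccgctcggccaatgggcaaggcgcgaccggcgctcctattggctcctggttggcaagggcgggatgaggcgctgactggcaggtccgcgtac
Atp5g2: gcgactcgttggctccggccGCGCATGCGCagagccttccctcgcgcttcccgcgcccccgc
Cox6a1 carries both an NRF1 and an ETS match, Atp5g2 an NRF1 match only, and the other 5 stretches an ETS match only.

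The 4 libraries held 91676884, 66573909, 64158446 and 76111556 UMIs, and 10213, 6508, 9278 and 8745 nuclei were kept with medians of 6402, 7327.5, 5051.5 and 6085 UMIs. Any pair of libraries shared between 16 and 27 kept barcodes. Nuclei were grouped without the OXPHOS genes, and each class name stands for nuclei that resemble that type in its marker genes. All 7 classes compared held UMIs of every marker of their own list in every library. The libraries stood apart within classes: of the granule neurons, cluster 0 held 2700, 1816, 2522 and 99 nuclei and cluster 1 held 191, 78, 2 and 2568. Of the oligodendrocytes, cluster 4 held 1291, 623, 107 and 36 nuclei, cluster 6 held 103, 26, 0 and 1368, and cluster 7 held 62, 37, 1395 and 0. The knock-in library without exercise had the fewest UMIs per nucleus in all 7 classes. Markers of other classes held UMIs in every class, most in oligodendrocytes, where the 7 granule markers, all detected, summed to 4459, 4758, 3203 and 4123 CPM. CPM is a level relative to all UMIs of the class on the usual per-million scale. In granule neurons themselves these markers summed to 6382, 6539, 5847 and 5093 CPM, and in CA1 neurons to 345, 397, 315 and 457 CPM. In oligodendrocytes the CA1 markers summed to 3023, 3026, 2349 and 3095 CPM and the CA3 markers to 275, 235, 200 and 445 CPM. Whether the granule marker UMIs in oligodendrocytes came from other cells or from the nuclei's own transcripts was not tested.

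Across cell types, OXPHOS genes took a smaller share of the RNA of neuronal nuclei than of oligodendrocytes and astrocytes. Summed over the 85 members, oligodendrocytes stood at 3013, 3197, 5604 and 1959 CPM and astrocytes at 3318, 3675, 4989 and 4290 CPM. CA1 neurons stood at 1674, 1461, 2202 and 1545 CPM, CA3 neurons at 1615, 1355, 2024 and 1467 CPM, and granule neurons at 2038, 1863, 2763 and 1581 CPM. Inhibitory neurons, at 2220, 1962, 3074 and 1870 CPM, were above the 3 excitatory classes in all 4 libraries. Microglia, at 2289, 1662, 3234 and 1892 CPM, were above CA1 and CA3 neurons in all 4 and near the inhibitory neurons. In WT with exercise they were below the granule and the inhibitory neurons. Counted per nucleus the order was another one, because neuronal nuclei held more RNA. CA3 neurons held 19.6, 19.6, 21.5 and 20.8 OXPHOS UMIs per nucleus out of 12117, 14495, 10608 and 14147 UMIs in all. Oligodendrocytes held 5.61, 5.91, 8.19 and 5.75 out of 1861, 1847, 1462 and 2938. The small endothelial class stood at 7415, 6007, 12920 and 2555 CPM in 62, 78, 8 and 21 nuclei.

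**Figure D1:**
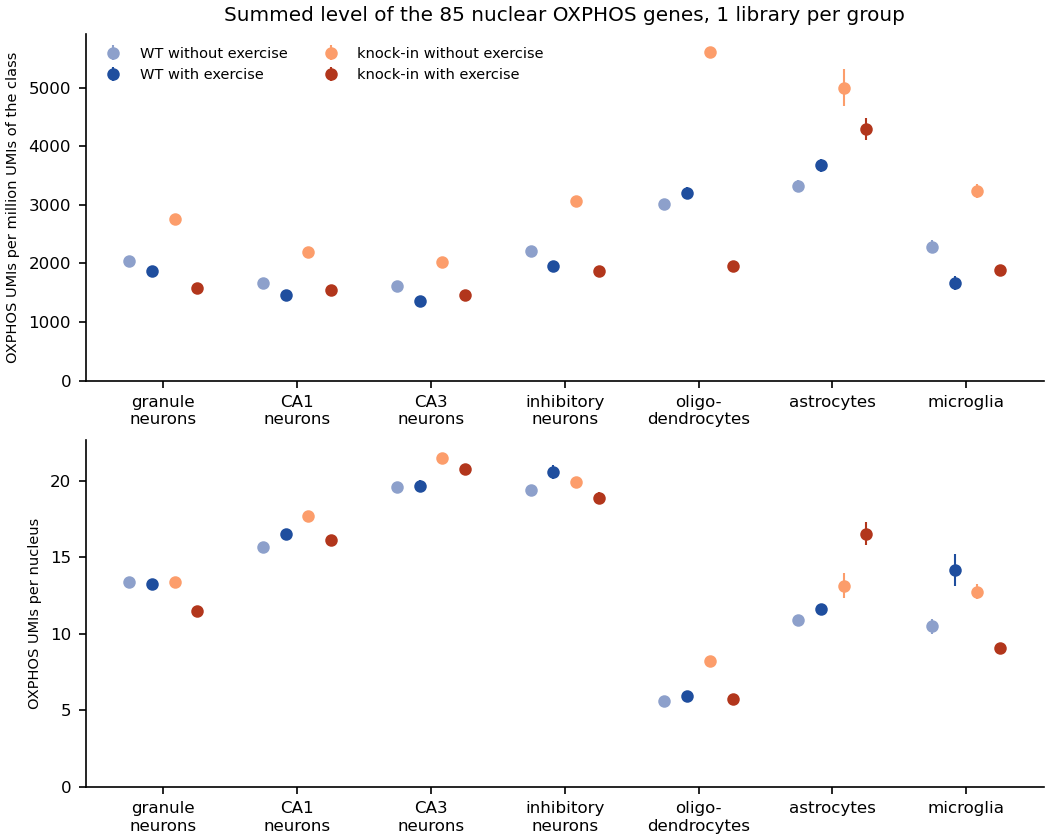
Summed level of the 85 nuclear OXPHOS genes in each library and class, in CPM of the class (top) and as UMIs per nucleus (bottom), with 95% Poisson intervals for counting error as bars. In the top panel the knock-in library without exercise is the highest in all 7 classes, while in the bottom panel it is the highest in CA1 neurons, CA3 neurons and oligodendrocytes only.

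The classes were compared over the 4 libraries with edgeR's quasi-likelihood test on UMIs summed per library and class, with the library as a block and Benjamini-Hochberg adjustment over 15777 genes. Of the members, 80 could be tested, and the other 5 had too few UMIs. In neurons (granule, CA1, CA3 and inhibitory) against glia (oligodendrocytes, astrocytes and microglia), 69 members were lower and 2 higher, where 35.0% and 28.5% of all genes tested were called. The median log2 fold change was -0.72 over the members and -0.07 over all genes. Members of every complex were lower: 31 of 37 tested members were lower in complex I, 3 of 4 in complex II, 6 of 8 in complex III, 12 of 14 in complex IV and all 17 in complex V. DESeq2 called 68 lower and 2 higher. The p-values measure the scatter of the class differences over the 4 libraries that is left after the library block, with a common estimate for all classes. Each library is a group of its own and the labels do not give its number of animals. So the p-values do not measure the spread between animals of a group.

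In each of complexes I, II, III and V, the called member with the largest difference between neurons and glia was a small subunit. In complex IV it was the isoform Cox6b2, described below. Subunit size was not compared with the fold change over the other members. Ndufb11, an accessory subunit of the membrane arm of complex I, was lower in neurons by a log2 fold change of -1.55 (SE 0.15, edgeR adjusted p = 2.25e-10). It stood at 9.97, 8.15, 18.6 and 3.63 CPM in granule neurons and at 29.9, 34.7, 73.3 and 9.70 CPM in oligodendrocytes, so that each library showed the difference. In microglia, at 7.44, 7.19, 24.9 and 6.75 CPM, Ndufb11 was close to the neurons. Uqcr11, the smallest subunit of complex III, was lower by -1.43 (SE 0.16, edgeR adjusted p = 1.22e-08), with 12.2, 11.9, 20.5 and 7.67 CPM in granule neurons against 35.4, 38.1, 61.7 and 94.5 CPM in astrocytes. Atp5e, the epsilon subunit of the rotor of complex V, was lower by -1.40 (SE 0.18, edgeR adjusted p = 9.39e-08). Sdhd, one of the membrane anchors of complex II, was lower by -0.88 (SE 0.15, edgeR adjusted p = 5.84e-06).

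The members higher in neurons were both of complex I. Ndufa10, an accessory subunit of its membrane arm, was higher by 0.33 (SE 0.06, edgeR adjusted p = 1.14e-05). Its level was 58.6, 55.3, 69.2 and 63.9 CPM in CA1 neurons and 45.8, 46.6, 63.3 and 41.0 CPM in oligodendrocytes, but 64.2, 56.6, 71.9 and 46.2 CPM in astrocytes, within the range of the neurons. Ndufs4, an accessory subunit whose loss in humans causes Leigh syndrome, was higher by 0.17 (SE 0.06, edgeR adjusted p = 0.0242). Without TMM factors no member was called higher.

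OXPHOS genes took a larger share of the RNA of inhibitory than of excitatory neurons. Of the 80 members tested, 38 were higher and 1 lower than in the mean of granule, CA1 and CA3 neurons, where 30.1% and 23.1% of all genes were called, and the median was 0.28. By complex, 14 of 37 members were higher in complex I, 3 of 4 in complex II, 5 of 8 in complex III, 7 of 14 in complex IV and 9 of 17 in complex V. Cox7b, a structural subunit of complex IV, was higher by 0.63 (SE 0.08, edgeR adjusted p = 1.60e-07), with 47.6, 38.7, 93.3 and 38.9 CPM in inhibitory neurons against 25.5, 25.9, 54.1 and 20.6 CPM in CA1 neurons. Ndufa8, an accessory subunit of complex I, was higher by 0.59 (SE 0.17, edgeR adjusted p = 0.00495), and Atp5g1, one of the genes for the c-ring of complex V, by 0.53 (SE 0.12, edgeR adjusted p = 0.000481). Uqcrfs1, the Rieske iron-sulfur protein of complex III, was higher by 0.45 (SE 0.13, edgeR adjusted p = 0.0042), but its value was -0.0277 (edgeR adjusted p = 0.973) after thinning to 1500 UMIs per nucleus. Without the library of WT without exercise, Uqcrfs1 and Ndufa8 missed the threshold (edgeR adjusted p = 0.079 and 0.128), as they did without that of WT with exercise (edgeR adjusted p = 0.065 and 0.0614). Sdha, the flavoprotein that oxidises succinate, was higher by 0.39 (SE 0.08, edgeR adjusted p = 6.95e-05) and stood at 101.5, 90.2, 106.9 and 88.4 CPM in inhibitory neurons and at 73.7, 60.7, 68.8 and 71.8 CPM in CA1 neurons, without overlap. Ndufs3, a core subunit of complex I, was the lower member, by -0.32 (SE 0.08, edgeR adjusted p = 0.00102). The count of higher members was 6 without the library block, 14 without the library of WT without exercise, 17 without that of WT with exercise, 12 with finer clusters, 7 with doublets left in and 9 of 77 after thinning. At these settings 19.7%, 21.1%, 22.0%, 23%, 23% and 19.1% of all genes were higher, so that the members' share was below that of all genes at each of them.

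Granule neurons of the dentate gyrus stood above the pyramidal neurons of CA1 and CA3. Here 46 members were higher and 3 lower, where 26.3% and 25.7% of all genes were called, with a median of 0.34. The higher members were 23 of 37 in complex I, 1 of 4 in complex II, 5 of 8 in complex III, 7 of 14 in complex IV and 10 of 17 in complex V. Cox6c, a small subunit of complex IV, gave the largest called value, 0.94 (SE 0.14, edgeR adjusted p = 1.22e-06), with 60.5, 51.6, 75.3 and 28.6 CPM in granule neurons against 27.6, 24.4, 35.4 and 19.9 CPM in CA1 neurons. Ndufb11 was higher by 0.72 (SE 0.14, edgeR adjusted p = 5.03e-05), Uqcrb, a small subunit of complex III, by 0.54 (SE 0.13, edgeR adjusted p = 0.000859), and Atp5e by 0.51 (SE 0.18, edgeR adjusted p = 0.0171). Complex II was split between its subunits. Sdhd was higher by 0.48 (SE 0.13, edgeR adjusted p = 0.00285), whereas Sdhb, the iron-sulfur subunit, was lower by -0.30 (SE 0.08, edgeR adjusted p = 0.00276), with 34.9, 29.6, 33.9 and 40.0 CPM in granule neurons and 48.8, 40.1, 35.4 and 55.5 CPM in CA1 neurons. The other lower members were Ndufa10, by -0.41 (SE 0.06, edgeR adjusted p = 2.25e-06), and Uqcrc1, a core protein of complex III, by -0.27 (SE 0.07, edgeR adjusted p = 0.00184). The count of higher members was 2 without the library block, 20 without the library of WT without exercise, 26 without that of WT with exercise and 19 of 77 after thinning. At these settings 12.7%, 19.5%, 20.6% and 19.9% of all genes were higher, so that the members' share was below that of all genes without the block and above it at the others. Without the library of WT without exercise, Atp5e, Sdhd and Sdhb missed the threshold (edgeR adjusted p = 0.0703, 0.0597 and 0.0765), and Atp5e also did so without WT with exercise (edgeR adjusted p = 0.237) and without the unexercised knock-in (edgeR adjusted p = 0.057).

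**Figure D2:**
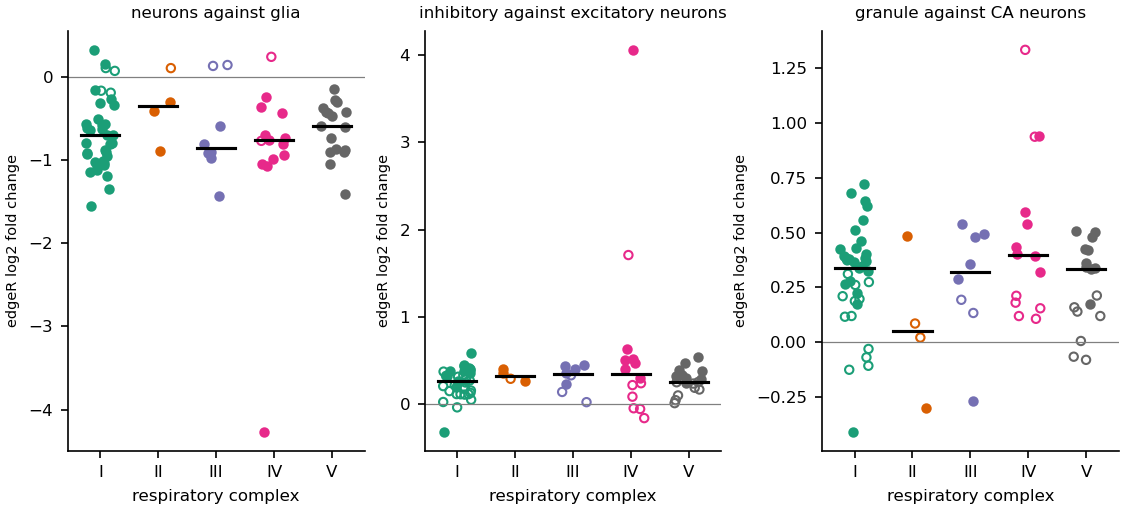
edgeR log2 fold changes of the 80 tested members by complex in 3 comparisons of cell types, where filled points were called at an adjusted p under 0.05, open points were not, and black lines are medians. In neurons against glia nearly all points lie below 0, with Cox6b2 at -4.27, and in the other comparisons most lie above 0, with Cox6a2 at 4.06 in inhibitory neurons.

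Genes around the chain were counted in the same fit. Over all genes, 28.5% were called higher and 35.0% lower in neurons, 30.1% and 23.1% in inhibitory neurons, and 26.3% and 25.7% in granule neurons. Of 12 tested subunits of the mitochondrial genome, 12 were lower in neurons than in glia (median -1.90), 3 were higher in inhibitory neurons (median 0.57) and 10 were higher in granule neurons (median 0.84). Of 56 cytosolic ribosomal protein genes, 54 were lower in neurons (median -1.03), 2 were higher and 4 lower in inhibitory neurons (median 0.04), and 51 were higher in granule neurons (median 0.53). So ribosomal protein genes moved with the OXPHOS genes in 2 of these comparisons and not in the inhibitory neurons. The part of other cells' RNA in these differences was not tested. Of 20 TCA cycle genes, 5 were higher and 6 lower in neurons, 12 were higher and 1 lower in inhibitory neurons, and 1 was higher and 5 lower in granule neurons. Of 17 glycolysis genes, 6 were higher and 11 lower in neurons, 5 and 3 in inhibitory neurons, and 4 and 9 in granule neurons. Of 45 assembly factors, 11 were higher and 17 lower, 14 and 1, and 11 and 9 in the same comparisons. For 78 mitochondrial ribosomal protein genes these counts were 8 and 37, 10 and 6, and 16 and 4. In neurons against glia, the TCA cycle genes and the assembly factors were called about as often as all genes. Cycs, the gene of cytochrome c, was lower in neurons by -0.65 (SE 0.15, edgeR adjusted p = 0.000361) and higher in inhibitory neurons by 0.60 (SE 0.14, edgeR adjusted p = 0.000858). Of 13 regulators of mitochondrial biogenesis, 5 were higher and 5 lower in neurons. Ppargc1a, the coactivator that drives such programmes, was higher in neurons by 0.72 (SE 0.11, edgeR adjusted p = 8.37e-07) and lower in granule neurons by -0.64 (SE 0.13, edgeR adjusted p = 0.000173).

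Most isoforms named for muscle or testis were rare in the hippocampus. Cox6a2, the heart and muscle isoform of subunit VIa, was called in inhibitory neurons, at 3.14, 3.56, 5.09 and 1.72 CPM, from 20, 15, 24 and 9 UMIs. Granule neurons had 0.15, 0.22, 0.89 and 0.05 CPM, CA1 neurons 0.16, 0, 0.38 and 0.21 CPM and CA3 neurons 3 UMIs in all, so that the inhibitory neurons were above these 3 classes in every library (the 0 UMIs in the exercised WT allow up to 0.233 CPM in CA1 and 0.415 CPM in CA3 neurons), with a log2 fold change of 4.06 (SE 0.34, edgeR adjusted p = 2.84e-11). Of its 68 UMIs in inhibitory neurons, 51 were in those of the medial ganglionic eminence type (4.56 CPM over the 4 libraries) and 12 in the caudal type (2.04 CPM). The common isoform Cox6a1 was at 38.5, 27.8, 49.0 and 25.3 CPM in inhibitory neurons. Cox6b2, the testis isoform of subunit VIb, was lower in neurons than in glia by -4.27 (SE 0.60, edgeR adjusted p = 4.89e-07). It had 6.28, 3.95, 10.5 and 3.88 CPM in oligodendrocytes, from 17, 5, 23 and 16 UMIs, and 1 UMI in all CA3 neurons. In astrocytes Cox6b2 had 9.05, 7.08, 15.4 and 0 CPM from 11, 8, 3 and 0 UMIs, where 0 allows a level of up to 6.59 CPM.

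Vascular and stromal nuclei held further isoforms, at few UMIs and with no test. Cox4i2, the isoform of subunit IV known from lung, and Ndufa4l2, a paralogue of Ndufa4 induced by low oxygen, had 208 and 541 UMIs over all kept nuclei. In a small pericyte class, found at a clustering resolution of 2.0 only, Cox4i2 had 18 UMIs (74.9 CPM over the 4 libraries) and Ndufa4l2 36 UMIs (150 CPM). Cox4i2 in granule neurons was at 0.35, 0.07, 0.41 and 0.15 CPM, and Ndufa4l2 at 0.46, 0.73, 0.49 and 0.20 CPM. Of the 29 UMIs of Cox8b, a muscle isoform of subunit VIII, 17 were in fibroblasts, and 16 of those in the knock-in library without exercise. Cox7a1, the heart and muscle isoform of subunit VIIa, had 86 UMIs and Cox8c, the testis isoform of subunit VIII, 1 UMI in all.

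Cox7b2, a testis isoform of subunit VIIb with an annotated length of 105382 bases, was detected in all neuronal classes, at 5.92, 5.6, 5.03 and 3.53 CPM in granule neurons. In astrocytes it had 23 UMIs in each WT library (18.9 and 20.3 CPM) and 0 in either knock-in library. Those libraries held 74 and 118 astrocytes, and 0 UMIs allow a level of up to 15.4 and 6.59 CPM for Cox7b2. The common isoforms Cox4i1, Cox6a1, Cox7a2, Cox8a and Ndufa4 were found in all 7 classes of every library. Cox8a, the common subunit VIII, ranged from 22.0 CPM in CA3 neurons of the exercised knock-in to 242 CPM in astrocytes of the same library. The genes of the c-ring, Atp5g1, Atp5g2 and Atp5g3, encode the same mature protein. Atp5g1 was at 23.1, 18.3, 35.3 and 15.2 CPM, Atp5g2 at 23.5, 27.2, 30.6 and 17.4 CPM and Atp5g3 at 13.9, 12.2, 21.8 and 11.0 CPM in granule neurons.

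Between the groups, the knock-in library without exercise held the highest OXPHOS share in all 7 classes. Each group had 1 library, so no difference between groups was tested or has a replicate check. Knock-in was set over WT among unexercised and among exercised mice, and exercised over unexercised mice within each genotype; plots name these genotype without exercise, genotype with exercise, exercise in WT and exercise in knock-in. Ratios below compare the summed CPM of 2 libraries, with exact binomial 95% intervals that cover counting error only. In granule neurons the log2 ratio of the sum was 0.44 (0.42 to 0.46) for the unexercised genotypes and -0.13 (-0.15 to -0.11) for running in WT. The latter was -0.0035 with TMM factors and -0.0672 with totals that leave out mitochondrial and the 50 highest genes. The ratio was -0.81 (-0.83 to -0.78) for running in the knock-in and -0.24 (-0.26 to -0.21) for the exercised genotypes, where it was -0.40 with TMM factors. Each library enters 2 of these 4 ratios, so they are not independent of each other, and the knock-in without exercise enters both the first and the third.

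Of the 85 members, 78 had at least 50 UMIs in granule neurons. Of these, 66 were highest in the knock-in without exercise and 53 lowest in the knock-in with exercise. How many of all genes stood in these places was not counted, so these counts have no share to be set against. For the unexercised genotypes 67 of 78 were higher, against 48.1% of all genes, and 38 were at least 1.5-fold higher, against 15.4%. None was 1.5-fold lower, against 8.00%. For running in WT 16 were higher (31.0% of all genes), 1 was 1.5-fold higher (3.88%) and 0 were 1.5-fold lower (8.29%). For running in the knock-in 8 were higher (53.9%), none was 1.5-fold higher (22.5%) and 54 were 1.5-fold lower (21.4%). For the exercised genotypes 24 were higher (63.7%), none was 1.5-fold higher (22.4%) and 23 were 1.5-fold lower (10.2%). The members' median log2 ratio was 0.58, -0.15, -0.95 and -0.26 in these comparisons, and that of all genes -0.02, -0.12, 0.07 and 0.19.

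The same libraries differed in depth, and per nucleus the picture was another. Granule neurons held 13.4, 13.3, 13.4 and 11.5 OXPHOS UMIs per nucleus, out of 6577, 7124, 4852 and 7266 UMIs in all. Per nucleus the log2 ratio of the sum was -0.00 (-0.02 to 0.02) for the unexercised genotypes, where the median of all genes was -0.46, and -0.22 (-0.25 to -0.20) for running in the knock-in, where that of all genes was 0.65. Thus the members' number per nucleus was alike in the knock-in and WT libraries without exercise while most other genes had fewer UMIs in the knock-in. After each nucleus was thinned to 1500 UMIs, the ratios of the OXPHOS share were 0.47 and -0.78. The markers of inhibitory neurons (5 of 5 detected) summed to 113, 73.3, 78.9 and 204 CPM in the granule class, and those of oligodendrocytes (8 of 8) to 416, 403, 471 and 489 CPM. Those of microglia (8 of 8) summed to 35.3, 29.8, 59.3 and 32.1 CPM, highest in the library with the highest OXPHOS level, while those of astrocytes (8 of 8) and CA1 neurons (6 of 6) were lowest there, at 170 and 397 CPM. Granule cluster 30, led by genes of the mitochondrial genome, held 113, 35, 19 and 25 nuclei, and without it the ratios were 0.49 and -0.81. The part of the other cells' RNA in the result was not tested.

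**Figure D3:**
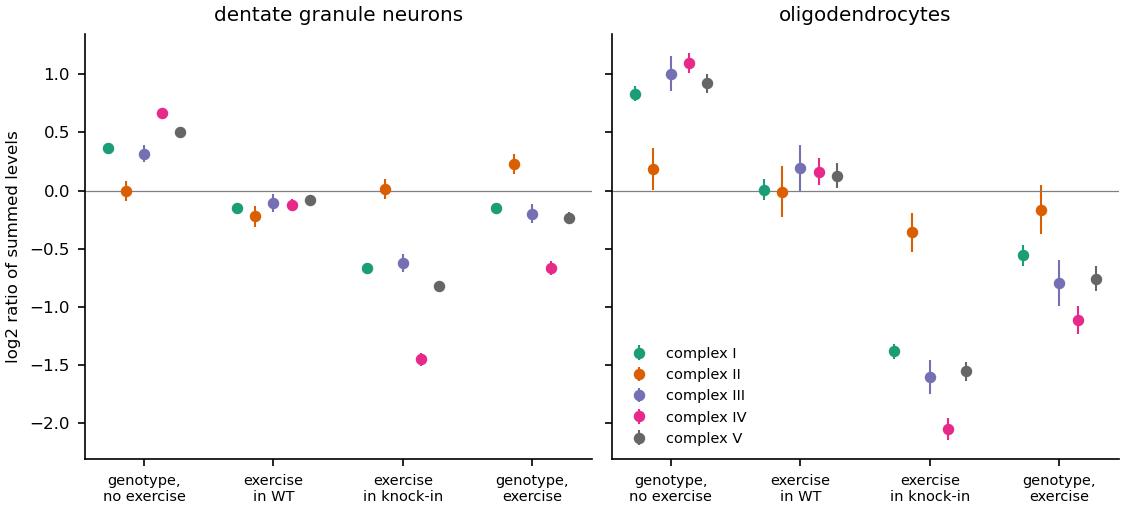
log2 ratio of the summed level of each complex in granule neurons (left) and oligodendrocytes (right) for the 4 comparisons of libraries, with exact binomial 95% intervals for counting error as bars. Complex IV lies farthest from 0 for the unexercised genotypes and running in the knock-in in both classes, and complex II nearest to 0.

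Complex I in granule neurons had a ratio of 0.36 (0.33 to 0.40) for the unexercised genotypes and -0.67 (-0.70 to -0.63) for running in the knock-in. Its members spread widely. Ndufb9, an accessory subunit of the membrane arm, stood at 26.5, 30.2, 59.7 and 14.1 CPM, highest in the knock-in without exercise and lowest in the knock-in with exercise. Its log2 ratios were 1.17 (1.01 to 1.33) and -2.09 (-2.29 to -1.88). Ndufb11, on chromosome X (GRCm38, 20615326 to 20617619, minus strand), was at 9.97, 8.15, 18.6 and 3.63 CPM and had 0.90 (0.62 to 1.18) and -2.35 (-2.76 to -1.96), the lowest value of complex I for running in the knock-in. Ndufa4, which is named for complex I but is known to sit in complex IV, followed the same order with 25.2, 23.4, 51.0 and 12 CPM and ratios of 1.02 (0.84 to 1.19) and -2.09 (-2.31 to -1.87).

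For the unexercised genotypes and running in the knock-in, core subunits of complex I stood nearer to 0 in granule neurons. Ndufs1, the largest of them, which carries iron-sulfur clusters, was at 77.2, 68.8, 67.4 and 70.2 CPM, nearly level in the 4 libraries, with ratios of -0.20 (-0.32 to -0.07) and 0.06 (-0.06 to 0.19). Ndufs3 was at 66.1, 57.3, 65.2 and 56.6 CPM, and Ndufv1, which binds NADH, at 16.8, 14.6, 20.1 and 20.7 CPM. The accessory subunit Ndufa1, at 7.04, 8.73, 13.5 and 4.60 CPM, gave the highest ratio of the complex for running in WT, 0.31. The accessory subunit Ndufa9, at 18, 13.8, 16.1 and 17.8 CPM, gave the highest for running in the knock-in, 0.15. Ndufs4 had most UMIs of complex I and was at 123, 115, 133 and 88.4 CPM, with ratios of 0.12 (0.03 to 0.21) and -0.59 (-0.69 to -0.49). Over the 7 nuclear core subunits the median ratio in granule neurons was 0.09 for the unexercised genotypes and -0.20 for running in the knock-in, with 1 of 7 at least 1.5-fold higher and 2 of 7 at least 1.5-fold lower. Over the 10 Ndufb subunits of the membrane arm the medians were 0.64 and -1.07, with 7 of 10 higher and 8 of 10 lower by that factor. Of all genes, 15.4% were higher and 21.4% lower by it. For running in WT the medians were -0.21 over the core subunits and -0.14 over the Ndufb subunits, and for the exercised genotypes 0.25 and -0.37. Median gene lengths were 10194 bases for the core subunits and 7076.5 bases for the Ndufb subunits, and this grouping was chosen after the values were seen.

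The sum of complex II was nearly level in granule neurons in the comparisons that include the unexercised knock-in, but not in the others. Its ratios in granule neurons were -0.01 (-0.09 to 0.08) for the unexercised genotypes, 0.01 (-0.07 to 0.10) for running in the knock-in, -0.22 (-0.31 to -0.13) for running in WT and 0.23 (0.14 to 0.32) for the exercised genotypes. Sdha stood at 75.5, 66.7, 78.1 and 68.8 CPM, with ratios of 0.05 (-0.07 to 0.17) and -0.18 (-0.30 to -0.06) for the unexercised genotypes and running in the knock-in. Sdhb stood at 34.9, 29.6, 33.9 and 40.0 CPM, highest in the exercised knock-in. Sdhc, a membrane anchor encoded on chromosome 1 (GRCm38, 171127165 to 171150603, minus strand), stood at 23, 18.6, 18.8 and 26.9 CPM, with ratios of -0.29 (-0.53 to -0.06) and 0.52 (0.29 to 0.75), opposite in sign to most members, although the first became 0.01 after thinning. Sdhd, the other anchor and the shortest gene of the complex, stood at 6.23, 4.80, 8.27 and 4.60 CPM, with ratios of 0.41 (0.02 to 0.80) and -0.85 (-1.27 to -0.42), on the side of the other complexes.

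Complex III had ratios of 0.32 (0.24 to 0.39) and -0.62 (-0.70 to -0.54) for the unexercised genotypes and running in the knock-in in granule neurons. Its small subunits and the Rieske protein lay farthest from 0. Uqcrq stood at 17.3, 18.8, 31.2 and 10.6 CPM, with ratios of 0.85 (0.64 to 1.07) and -1.55 (-1.80 to -1.31). Uqcrfs1 stood at 8.00, 7.06, 13.3 and 3.83 CPM, with ratios of 0.73 (0.41 to 1.06) and -1.79 (-2.21 to -1.39). The large core proteins lay near 0: Uqcrc2 stood at 53.4, 47.7, 46.7 and 49.3 CPM, with ratios of -0.19 (-0.34 to -0.05) and 0.08 (-0.07 to 0.23), and Uqcrc1 at 31.6, 28.7, 34.2 and 31.4 CPM.

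Complex IV gave the largest ratios of the 5 complexes in granule neurons, 0.66 (0.62 to 0.71) for the unexercised genotypes and -1.45 (-1.5 to -1.40) for running in the knock-in. For the exercised genotypes its ratio was -0.67 (-0.72 to -0.61), against -0.15 for complex I. Cox7c, a small structural subunit whose gene lies on chromosome 13 (GRCm38, 86044816 to 86046904, minus strand), stood at 41.4, 54.2, 121 and 34.6 CPM, and its ratio of 1.54 (1.42 to 1.67) for the unexercised genotypes was the highest of the 78 members. For running in the knock-in Cox7c had -1.80 (-1.94 to -1.67), beside -1.81 (-2.06 to -1.57) for Cox5b, a zinc-binding subunit at 20.1, 18.2, 36.6 and 10.4 CPM. Cox8a, which has most UMIs of complex IV, stood at 66.3, 57.2, 91.9 and 28.1 CPM, and Cox4i1, the common isoform of the regulatory subunit IV, at 52.9, 45, 85.5 and 26.0 CPM. All these genes were highest in the knock-in without exercise and lowest in the knock-in with exercise. Members nearer to 0 were Cox7a2l, at 23.5, 19.4, 23 and 21.8 CPM, and Cox7b2, with ratios of -0.24 (-0.71 to 0.22) and -0.51 (-1.03 to 0.01).

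Complex V had ratios of 0.51 (0.46 to 0.55) and -0.82 (-0.87 to -0.78) for the same comparisons. Atp5a1, the alpha subunit of its F1 head, stood at 74.5, 68.1, 135 and 57.1 CPM, with ratios of 0.86 (0.76 to 0.96) and -1.24 (-1.36 to -1.13). Atp5e, at 6.07, 10.2, 13.3 and 4.35 CPM, had 1.13 (0.78 to 1.48) and -1.61 (-2.01 to -1.23), and for running in WT its 0.75 (0.38 to 1.11) was the one ratio past 1.5-fold among the 78 members. Other F1 subunits lay nearer to 0: Atp5b, the catalytic beta subunit, stood at 58.4, 41.0, 65.4 and 49.3 CPM, Atp5c1, the gamma subunit, at 54.9, 54.0, 53.8 and 43.7 CPM, and Atp5d, the delta subunit, at 27.3, 21.2, 30.2 and 26.0 CPM. Within the F1 head, then, the alpha and epsilon genes were more than 1.5-fold higher for the unexercised genotypes and the other 3 were not.

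Of the 7 classes compared, oligodendrocytes showed the widest range between libraries. Their OXPHOS sum had a log2 ratio of 0.90 (0.85 to 0.94) for the unexercised genotypes, 0.09 (0.03 to 0.14) for running in WT, -1.52 (-1.56 to -1.48) for running in the knock-in and -0.71 (-0.76 to -0.65) for the exercised genotypes. Of 78 members with at least 50 UMIs, 76, 51, 1 and 8 were higher in these comparisons, against 44.1%, 38.0%, 51.4% and 53.0% of all genes. Of them, 66, 7, 0 and 0 were at least 1.5-fold higher, against 15.7%, 4.73%, 23.5% and 21.4% of all genes, and 0, 2, 70 and 51 were 1.5-fold lower, against 15.1%, 13.4%, 24.9% and 15.3%. The highest library was the knock-in without exercise for 76 members and the lowest the knock-in with exercise for 70, and all genes were not counted in this way. Cox7c stood at 59.1, 92.3, 168 and 41.2 CPM, Cox8a at 122, 118, 216 and 43.4 CPM, and Uqcrq at 26.6, 35.5, 69.7 and 14.6 CPM. Ndufb11, at 29.9, 34.7, 73.3 and 9.70 CPM, gave the lowest ratio for running in the knock-in, -2.92. Sdha, at 114, 114, 126 and 105 CPM, Ndufs1, at 90.8, 73.4, 85.1 and 71.5 CPM, and Ndufs4, at 93.8, 81.3, 79.7 and 86.3 CPM, were nearly level.

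These oligodendrocyte values rest on different clusters in different libraries: cluster 7 in the knock-in without exercise, cluster 6 in the knock-in with exercise and cluster 4 in both WT libraries. The granule markers in the class were lowest, at 3203 CPM, in the library with the highest OXPHOS level. The microglia markers were highest there, at 33.6, 29.2, 89.7 and 60.4 CPM in the 4 libraries with 8, 7, 8 and 8 of 8 detected. The part of other cells' RNA in these values was not tested. UMIs per nucleus were 1462 in that library against 2938 in the exercised knock-in. Per nucleus the OXPHOS ratio was 0.55 (0.51 to 0.59) for the unexercised genotypes and -0.51 (-0.55 to -0.47) for running in the knock-in, where the medians of all genes were -0.43 and 1.03. After thinning to 1500 UMIs, which left 1190, 514, 517 and 1399 oligodendrocytes, the ratios of the share were 0.75 and -1.37. The exercised knock-in was deposited without barcodes under 1199 UMIs. With at least 1200 UMIs in every library the ratios of the share were 0.83 and -1.45.

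In the other classes, members were again mostly highest in the unexercised knock-in, without a count of all genes beside it. For the unexercised genotypes, 32 of 78 measured members were at least 1.5-fold higher in CA1 neurons against 14.3% of all genes, 21 of 78 in CA3 neurons against 11.8%, and 34 of 79 in inhibitory neurons against 14.6%. In astrocytes it was 39 of 73 against 15.1%, and in microglia 28 of 63 against 13.7%. For running in the knock-in, 39 of 78 were at least 1.5-fold lower in CA1 neurons against 18.5%, 40 of 78 in CA3 neurons against 16.6%, and 52 of 79 in inhibitory neurons against 18.5%. In astrocytes it was 24 of 73 against 18.5%, and in microglia 38 of 63 against 13.4%. For the exercised genotypes, the members higher were 44 in CA1 neurons (69.2% of all genes), 43 in CA3 neurons (68.8%), 34 in inhibitory neurons (66.2%), 46 in astrocytes (58.8%) and 40 in microglia (68.9%), so that the members' share was below that of all genes in these classes other than astrocytes.

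The sums of these classes had the same sign for the unexercised genotypes and for running in the knock-in. For the unexercised genotypes the log2 ratio of the sum was 0.40 (0.37 to 0.42) in CA1 neurons, 0.33 (0.29 to 0.36) in CA3 neurons, 0.47 (0.44 to 0.50) in inhibitory neurons, 0.59 (0.49 to 0.69) in astrocytes and 0.50 (0.41 to 0.59) in microglia. For running in the knock-in it was -0.51 (-0.54 to -0.49), -0.46 (-0.50 to -0.43), -0.72 (-0.75 to -0.68), -0.22 (-0.33 to -0.11) and -0.77 (-0.85 to -0.70) in that order. For running in WT it was -0.20, -0.25, -0.18, 0.15 and -0.46, and for the exercised genotypes 0.08, 0.11, -0.07, 0.22 and 0.19. The last values were small and in all 5 classes changed sign under another setting. The microglia value of -0.46 for running in WT was 0.0031 with doublets left in, where the class held 23 nuclei of the exercised WT. In that library the class summed to 2597 CPM of granule markers and 1504 CPM of its own, against 1954 and 2550 CPM in WT without exercise. Astrocytes numbered 74 in the knock-in without exercise and microglia 49 in the exercised WT, so their intervals were the widest. The own markers of inhibitory neurons summed to 9159, 8121, 8455 and 5464 CPM in that class. In astrocytes their own markers summed to 10178, 8742, 6782 and 9968 CPM, and those of oligodendrocytes to 489, 692, 627 and 1451 CPM. The part of such shifts in these ratios was not tested.

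The classes mostly shared the order of the complexes in the comparisons that include the unexercised knock-in. For the unexercised genotypes complex II had the lowest ratio in all 7 classes and complex IV the highest in 6, with complex III above it in microglia. For running in the knock-in complex II had the highest ratio in all 7 classes and complex IV the lowest in 6, with complex V below it in astrocytes. For running in WT complex IV was highest in 4 classes and complexes II, III and V in 1 each, and complex II was lowest in 5 and complex V in 2. For the exercised genotypes complex II was highest in 5 classes and complex IV lowest in 6. In CA1 neurons complex IV had 0.74 (0.69 to 0.80) and -1.17 (-1.23 to -1.11), and complex II -0.20 (-0.29 to -0.11) and 0.30 (0.21 to 0.39). In inhibitory neurons complex IV had 0.78 (0.70 to 0.85) and -1.30 (-1.39 to -1.21), and complex II 0.02 (-0.11 to 0.15) and -0.03 (-0.17 to 0.10). The classes of a library share its preparation and its stray RNA, so they are not separate observations of a group.

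The make-up of the OXPHOS RNA does not depend on the total of a class, but it comes from the same UMIs as these ratios. Its order of the complexes follows from them and is no separate support. In granule neurons complex IV took 20.1% (19.7 to 20.5), 20.2% (19.7 to 20.7), 23.5% (23.1 to 24.0) and 15% (14.6 to 15.4) of the OXPHOS UMIs, with Clopper-Pearson 95% intervals. Complex II took 6.85%, 6.43%, 5.03% and 8.87%, complex I 41.0%, 40.4%, 39.0% and 42.9%, complex III 8.31%, 8.46%, 7.64% and 8.68%, and complex V 23.7%, 24.5%, 24.8% and 24.5%. The share of complex IV was highest in the knock-in without exercise and lowest in the knock-in with exercise in 6 of 7 classes. The exception was astrocytes. The share of complex II was lowest in the knock-in without exercise in all 7 classes and highest in the knock-in with exercise in 5 of 7, the others being astrocytes and microglia. In CA1 neurons, for example, complex IV took 16.9% and 18.1% in WT against 21.5% and 13.6% in the knock-in.

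**Figure D4:**
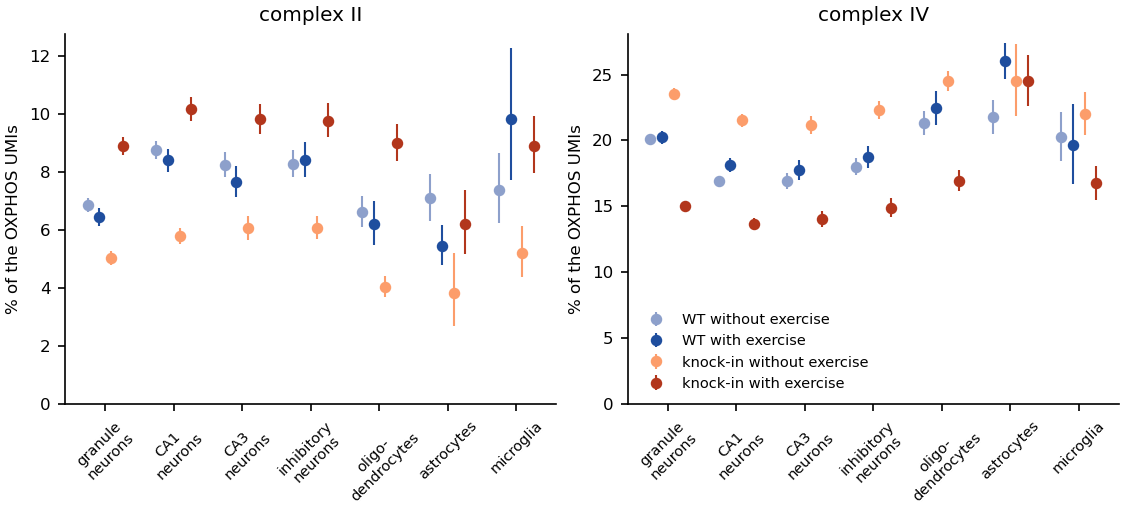
Percentage of the OXPHOS UMIs that belong to complex II (left) and complex IV (right) in each library and class, with Clopper-Pearson 95% intervals as bars. Except in astrocytes, complex IV is highest in the knock-in without exercise and lowest in the knock-in with exercise, and complex II is lowest in the knock-in without exercise in all 7 classes.

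Other gene lists differed between the libraries as well. In granule neurons 56 cytosolic ribosomal protein genes had ratios of their sum of 0.59, -0.22, -1.11 and -0.29 in the order of the 4 comparisons used above. Of these genes, 55 were higher for the unexercised genotypes, against 48.1% of all genes. For running in the knock-in 44 were 1.5-fold lower, against 21.4%. The order is that of the OXPHOS genes with larger values. The 78 mitochondrial ribosomal protein genes had 0.37, -0.09, -0.43 and 0.04, and 44 assembly factors 0.23, -0.03, -0.33 and -0.07. The 20 TCA cycle genes had -0.03, -0.19, 0.13 and 0.29, and 17 glycolysis genes 0.01, -0.21, 0.24 and 0.46, so these lists lay near complex II. The 11 subunits of the mitochondrial genome had -0.24, -0.79, -1.20 and -0.64, and without cluster 30 they had 0.45, -0.56, -1.35 and -0.35. Cycs and Cyc1, the genes of cytochrome c and c1, had 0.32, -0.41, -0.61 and 0.12 together, and 13 regulators of mitochondrial biogenesis -0.16, -0.14, 0.30 and 0.28. In oligodendrocytes the ribosomal protein genes had 1.07, 0.12, -1.90 and -0.95 and the TCA cycle genes -0.03, -0.12, -0.05 and 0.04.

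Gene length moved with the ratios. Complexes differ in it, with median annotated lengths of 8089.5 bases in complex I, 20715 in complex II, 4908.5 in complex III, 3929 in complex IV and 7184 in complex V. Across the 78 granule members, which are not independent of each other, Pearson's r between log10 length and the log2 ratio was -0.72 for the unexercised genotypes, -0.20 for running in WT, 0.60 for running in the knock-in and 0.33 for the exercised genotypes. The 11 members of at least 20 kb had medians of -0.17, -0.17, -0.18 and 0.04, and the other 67 had 0.65, -0.14, -1.08 and -0.32. This limit of 20 kb was chosen after the values were seen. Other genes showed the direction too: over the 2935 genes shorter than 8255 bases, the median for the unexercised genotypes was 0.31 without the members and 0.70 over the 44 members among them, and over the 2936 genes longer than 80462 bases it was -0.14. In oligodendrocytes r was -0.65 for the unexercised genotypes and 0.67 for running in the knock-in. The part of gene length in the differences between the complexes was not tested.

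**Figure D5:**
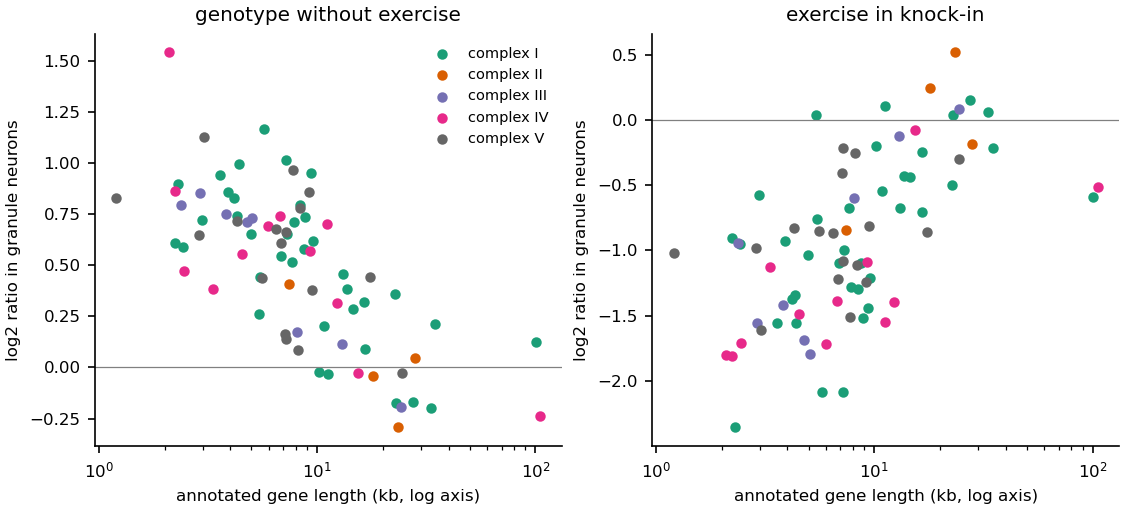
log2 ratio of each of the 78 members measured in granule neurons against its annotated length in kb on a log axis, for the unexercised genotypes (left) and running in the knock-in (right), coloured by complex. Members of at least 20 kb lie around 0 with medians of -0.17 and -0.18, while the shorter ones lie mostly above 0 on the left and below 0 on the right.

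Some of the counts may be shared with other genes. Of the members, 7 overlap another gene on the same strand, 28 overlap one on the other strand, and 26 have an annotated gene or pseudogene with at least 95% identity over at least 200 bases. Among those named above, Cox7c, Ndufb9 and Cox4i1 overlap a gene on the same strand, and Cox7c, Cox5b, Cox6c, Cox7b, Cox7a2l, Ndufb9, Ndufb11, Ndufs3, Uqcrb, Uqcrc2, Atp5c1 and Atp5g1 have such a similar gene, so their levels are uncertain to that extent.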

How the data were processed

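Nuclei of frozen hippocampus were measured with the 10x 3' v3.1 gene expression assay, and the deposited values are UMI counts per gene and nucleus. The authors made these counts with Cell Ranger: its version is 5.0.1 per the file headers and 3.1.0 per the submitters' processing notes, which also list mm10. Neither intronic counting nor strand is stated: both are not given in the sources used here. Identifiers of 32235 genes, all 85 members among them, matched GENCODE M21 on GRCm38.

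Nuclei with at least 500 genes, 1000 UMIs and under 5% mitochondrial UMIs were taken. The lowest deposited barcode held 501, 500, 504 and 1199 UMIs, so the exercised knock-in library was deposited with a higher floor. Of the nuclei taken, 8.98%, 5.50%, 8.07% and 7.57% were left out as doublets by simulated pairs (0.8% per 1000 nuclei). Clustering used 2000 variable genes without the members, 30 principal components, 15 neighbours and Leiden resolution 1 (scanpy 1.11.5, leidenalg 0.10.2), which gave 38 clusters. Of these, 11 stayed unnamed (921, 906, 1281 and 1173 nuclei), 2 of them under limits set after the clusters were seen.

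Class sums were tested with edgeR 4.0.16 (R 4.3.3) with TMM factors, filterByExpr and the library as a block, because classes of a library come from the same tissue sample. DESeq2 1.42.0 was an alternative. In simulated neurons against glia with 15777 genes, 61% of genes changed 1.5-fold and 81% of those changed 2-fold were recovered. The simulation gave each gene the same mean share in all classes and libraries before the change. It held no other class differences and no library effects, unlike the data, so the rates may not carry over. Libraries were compared by log2 ratios of CPM without a pseudocount, and a member counted as measured in a class from 50 UMIs. Genes named are the 2 members of each complex with most UMIs, the called member with the largest fold change per complex, contrast and direction, the highest and lowest ratio per complex and comparison in granule neurons among members with at least 100 UMIs, and the isoform families; others were chosen after their values were seen. The values of 1 gene under this rule are not reported here. Members, lists and comparisons were chosen with earlier results of these data known. Alternatives were other totals, TMM, thresholds, clusterings, doublets left in, thinning to 1500 UMIs and each library left out.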

Additional observations from a re-analysis of the deposited data

Results flagged for a closer look

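In oligodendrocytes the log2 ratio of the OXPHOS sum for exercise was 0.0855 (0.03 to 0.14) in WT and -1.52 (-1.56 to -1.48) in the knock-in, so that the counting intervals lay on opposite sides of 0. In astrocytes it was 0.148 (0.08 to 0.21) in WT and -0.218 (-0.33 to -0.11) in the knock-in, with 74 astrocytes in the knock-in library without exercise. With 1 library per group the difference between the genotypes was not tested in either class.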

How the results depend on the processing

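With totals that leave out mitochondrial and the 50 highest genes, the log2 ratio of the OXPHOS sum in granule neurons was 0.53 for the unexercised genotypes, -0.0672 for running in WT, -0.94 for running in the knock-in and -0.34 for the exercised genotypes, and in oligodendrocytes 1.02, 0.16, -1.69 and -0.83. With TMM factors it was 0.47, -0.0035, -0.87 and -0.40 in granule neurons, and 0.98 and 0.20 for the first 2 comparisons in oligodendrocytes. Thinned to 1500 UMIs, granule neurons had 0.47 and -0.10 for the first 2, and oligodendrocytes 0.75 for the unexercised genotypes and -1.37 for running in the knock-in, or 0.83 and -1.45 with at least 1200 UMIs. With doublets left in, granule neurons had 0.50 and -0.18 for the unexercised and exercised genotypes, and oligodendrocytes 0.14 for running in WT. Without granule cluster 30, an alternative chosen after seeing the data, the genotype values were 0.49 and -0.19. Several small ratios changed sign. With TMM, complexes III, IV and V in granule neurons had 0.022, 0.0049 and 0.043 for running in WT. Sdhc had 0.0104 for the unexercised genotypes after thinning, and microglia 0.0031 for running in WT with doublets left in. For the exercised genotypes, CA1 and CA3 neurons had -0.0446 and -0.0123 with the reduced totals and -0.17 and -0.12 with TMM, inhibitory neurons 0.0475 with doublets left in, and astrocytes -0.37 after thinning. Microglia had -0.11 with TMM, -0.71 with 4000 variable genes, -0.67 with doublets left in and -0.13 after thinning. The cause of these changes was not tested.

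Members called higher in neurons than in glia numbered 0 without TMM, 7 without the low count filter, 7 at resolution 2, 8 with 4000 variable genes, 7 with at least 1200 UMIs and 7 with doublets left in. Without the library as a replicate block, 1 member was higher and 60 were lower. Leaving out each library gave 5 to 6 higher and 57 to 63 lower. In inhibitory neurons the higher count was 6 without the block, 12 at resolution 2, 7 with doublets left in and 9 after thinning, and 14 to 42 with each library left out. The lower count there was 0 without the block, 4 at resolution 2, 2 with 4000 variable genes, 2 with at least 1200 UMIs, 2 with doublets left in, and 1 to 2 with each library left out. In granule neurons the block's removal gave 2 higher and 1 lower, thinning 19 higher, and leaving out each library 20 to 55 higher and 2 to 4 lower. Uqcrfs1 in inhibitory neurons had a log2 fold change of -0.0277 after thinning (edgeR adjusted p = 0.973). Astrocytes and microglia are limited by their few nuclei, microglia in the exercised WT also by granule markers above their own, and rare isoforms by their few UMIs.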
